A study of Mus musculus with 12 samples.

Results

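The genes of the chemokine system were examined in mouse bone marrow cells sorted as haematopoietic stem cells (HSCs), the cells from which all blood lineages descend. All measured genes whose symbol begins with Ccl, Cxcl, Cx3cl or Xcl (ligands) or with Ccr, Cxcr, Cx3cr or Xcr (receptors) followed by a digit were taken, apart from Cxcr1, Cxcr2 and Ccr3. This gave 47 of the 754 genes of the panel, 33 ligands and 14 receptors. The cells came from the femurs of male mice on day 3 after ICH, taken here as intracerebral haemorrhage, its usual meaning beside sham surgery, or after the sham operation. Wild-type mice of strain C57/BL6 were set against Adrb3-/- mice, which lack the beta-3 adrenergic receptor, a receptor through which sympathetic nerves act on the marrow. Either genotype was studied after either operation, which makes 4 groups of 3 libraries, and each library was taken as 1 mouse because the design gives 6 mice of each genotype. How the Adrb3-/- mice were made and on which strain is not given in the sources used here, and the Adrb3 transcript was not analysed here, so the genotype labels were not checked.

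Chemokines are small secreted proteins that guide cells along a gradient, and their receptors are coupled to G proteins in the membrane of the cell that moves. In the marrow, Cxcl12 made by stromal cells holds stem cells and young neutrophils in place through the receptor Cxcr4, while Ccl2 and its receptor Ccr2 let monocytes leave for the blood. Inflammatory chemokines such as Ccl3, Cxcl2 and Cxcl10 are switched on in leukocytes by microbial or cytokine signals, and homeostatic ones such as Ccl19, Ccl21a and Cxcl13 guide lymphocytes and dendritic cells in lymphoid organs.

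Across single libraries 2 patterns were picked out, and the promoters of 6 genes that carry them are shown here. The library that most often held the highest value was another, wild-type ICH replicate 1, for 13 of the 33 ligands and 5 of the 14 receptors. The same share over all genes was not counted, so this is not read as a trait of the chemokine genes. These ligands include Ccl7, Ccl28, Cxcl1 and Cxcl5, which were too low to be tested. Ccl3, Cxcl2 and Cxcl10 had their highest value in wild-type sham replicate 3, while Ccl6, Ccl9 and Ccr2 had theirs in Adrb3-/- ICH replicate 1. These genes were grouped after their values were seen, so no test was made of the groups. Each sequence is the gene's strand, 5′ to 3′, from 250 bases before the start of the gene to 50 bases after it, taken from RefSeq for the build GRCm38.p6. Capitals mark letters of 3 motifs searched on both strands, the NF-kappaB consensus, an interferon response motif (GAAA, 2 further bases, GAAA) and the TATA motif TATAAA.
Ccl3, chr11:83649329-83649628 on the minus strand: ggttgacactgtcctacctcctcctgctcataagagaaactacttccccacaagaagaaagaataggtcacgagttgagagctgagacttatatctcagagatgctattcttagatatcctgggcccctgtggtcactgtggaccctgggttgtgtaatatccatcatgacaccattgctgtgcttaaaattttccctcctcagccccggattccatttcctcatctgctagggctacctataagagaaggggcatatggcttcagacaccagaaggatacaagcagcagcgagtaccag
Cxcl2, chr5:90903649-90903948 on the plus strand: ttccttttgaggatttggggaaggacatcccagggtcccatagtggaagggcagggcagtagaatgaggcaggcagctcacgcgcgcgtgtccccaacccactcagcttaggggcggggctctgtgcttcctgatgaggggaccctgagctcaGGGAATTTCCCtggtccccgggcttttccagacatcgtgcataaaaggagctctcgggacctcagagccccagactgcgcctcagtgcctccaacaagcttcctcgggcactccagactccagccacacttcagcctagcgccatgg
Cxcl10, chr5:92348840-92349139 on the minus strand: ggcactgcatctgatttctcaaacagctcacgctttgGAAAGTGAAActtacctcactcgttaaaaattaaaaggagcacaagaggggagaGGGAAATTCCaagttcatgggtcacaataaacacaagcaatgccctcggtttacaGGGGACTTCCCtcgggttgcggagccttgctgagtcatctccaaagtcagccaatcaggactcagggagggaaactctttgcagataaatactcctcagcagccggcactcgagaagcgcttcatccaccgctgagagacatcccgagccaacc
Ccl6, chr11:83593038-83593337 on the minus strand: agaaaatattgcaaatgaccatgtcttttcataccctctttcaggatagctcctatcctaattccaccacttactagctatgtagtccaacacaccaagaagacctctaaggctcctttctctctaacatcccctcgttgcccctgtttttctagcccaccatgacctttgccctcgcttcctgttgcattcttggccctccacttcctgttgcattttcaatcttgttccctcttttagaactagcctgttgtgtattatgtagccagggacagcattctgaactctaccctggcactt
Ccl9, chr11:83578587-83578886 on the minus strand: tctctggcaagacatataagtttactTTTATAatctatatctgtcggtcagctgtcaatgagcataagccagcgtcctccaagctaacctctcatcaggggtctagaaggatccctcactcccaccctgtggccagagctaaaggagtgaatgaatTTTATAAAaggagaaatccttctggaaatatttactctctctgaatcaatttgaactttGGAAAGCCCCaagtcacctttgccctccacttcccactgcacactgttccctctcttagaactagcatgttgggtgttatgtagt
Ccr2, chr9:124101933-124102232 on the plus strand: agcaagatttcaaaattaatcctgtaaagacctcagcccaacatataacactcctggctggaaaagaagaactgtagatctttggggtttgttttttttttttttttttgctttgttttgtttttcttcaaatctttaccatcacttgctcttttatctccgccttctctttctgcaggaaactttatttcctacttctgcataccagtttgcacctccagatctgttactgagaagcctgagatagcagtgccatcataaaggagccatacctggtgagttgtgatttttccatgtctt

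The capitals in Cxcl2 and the last run in Cxcl10 each hold 2 overlapping NF-kappaB matches. In Cxcl10 the first run is the interferon motif and the second a further NF-kappaB match. Ccl9 held 1 NF-kappaB match and 3 TATA matches, of which 2 overlap. No motif was found in the windows of Ccl3, Ccl6 and Ccr2, which says only that these letters are not in those 300 bases. RefSeq promoters were at hand for 34 of the 47 genes. The NF-kappaB consensus was present for 8 of 23 ligand genes (34.8%), 2 of 11 receptor genes (18.2%) and in 8.46% of the 32851 promoters of all genes. The interferon response motif was present for 3 of 23 ligand genes (13.0%), 0 of 11 receptor genes and in 3.44% of all promoters, and TATAAA in 8 of 23, 2 of 11 and 13.6%. The chemokine shares count genes with a match in any promoter, and the share over all genes counts promoters, so the measures are not the same. A match is a description of the letters and shows no binding.

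The values are counts of transcripts scaled by 1 factor per library, here called signal. A gene with under 20 counts was given the value 20, whatever the scale of the library. Wild-type sham replicate 1 was left out of the results: its background, the mean plus 2 SD of the negative control probes, was 692 against 17.9 to 124 in the other 11 libraries, and 11 of the 47 genes were at 20. The main results therefore rest on 11 libraries with 2 in the wild-type sham group. Their genes with 20 or more counts summed to 110740 to 556407 counts. The lowest sum was that of Adrb3-/- ICH replicate 2, where 1 count was worth 5.16, so that a value of 20 there stands for any level under 103. In the other 10 libraries the value 20 stands for levels under 23.0 to 43.0. Adrb3-/- ICH replicate 1 had the highest background (124) and the lowest brightest positive control, 6278 counts against 23094 to 44207 in the other 10 libraries.

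The label of the sort was set against marker genes. Cd34, a marker of progenitors, ranged from 266 to 1880 and Kit, the stem cell factor receptor, from 20 to 293. In the same libraries S100a9, an abundant protein of mature neutrophils, ranged from 45115 to 221187. The summed level of the 10 measured neutrophil markers was 92087 to 518045, and that of the 5 measured stem and progenitor markers was 929 to 3672. These levels are of different probes and are not a cell count, but transcripts of mature neutrophils were abundant in cells sorted as HSCs. In such bulk samples fewer cells of a type and less RNA per cell cannot be told apart, and the chemokine values below are those of the mixture.

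Most chemokine ligands were measured at a low level. Over the 11 libraries the median ligand had a mean signal of 97.4 and the median receptor 140, against 146 for the median of all 754 genes, and the mean background was 52.2. Of the 33 ligands, 15 had no value at 20 and 18 had at least 1, with 46 of their 363 values at 20. Of the 14 receptors, 7 had no value at 20 and 7 had at least 1, with 10 of their 154 values at 20. None of the 47 genes was at 20 in all 11 libraries. In 6 ligands and 6 receptors every one of the 11 values exceeded the background of its own library.

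The 6 ligands of highest mean signal were Ccl3 (735), Ccl6 (462), Ccl9 (458), Ccl21a (412), Cxcl12 (342) and Ccl19 (230). The 4 receptors were Ccr2 (603), Cxcr4 (431), Ccr1 (229) and Ccr9 (182). Signal depends on the probe, so this order is not one of transcript abundance. At the other end, 7 ligands and 2 receptors had a mean at or under the background and were not tested. These were Cxcl5, Ccl7, Cxcl1, Cx3cl1, Ccl28, Cxcl3 and Ccl26 among the ligands, and the receptors Ccr8 and Xcr1. Ccl26 was at 20 in 10 of the 11 libraries and Cxcl3 in 9. Cxcl11, an interferon-induced ligand, is listed as a pseudogene in the C57BL/6J annotation, yet its probe gave 81.8 to 150. The probes of Ccl21a and Ccl27a cannot be told apart here from near-identical copies of these genes, so their values are uncertain as to the copy.

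**Figure D1:**
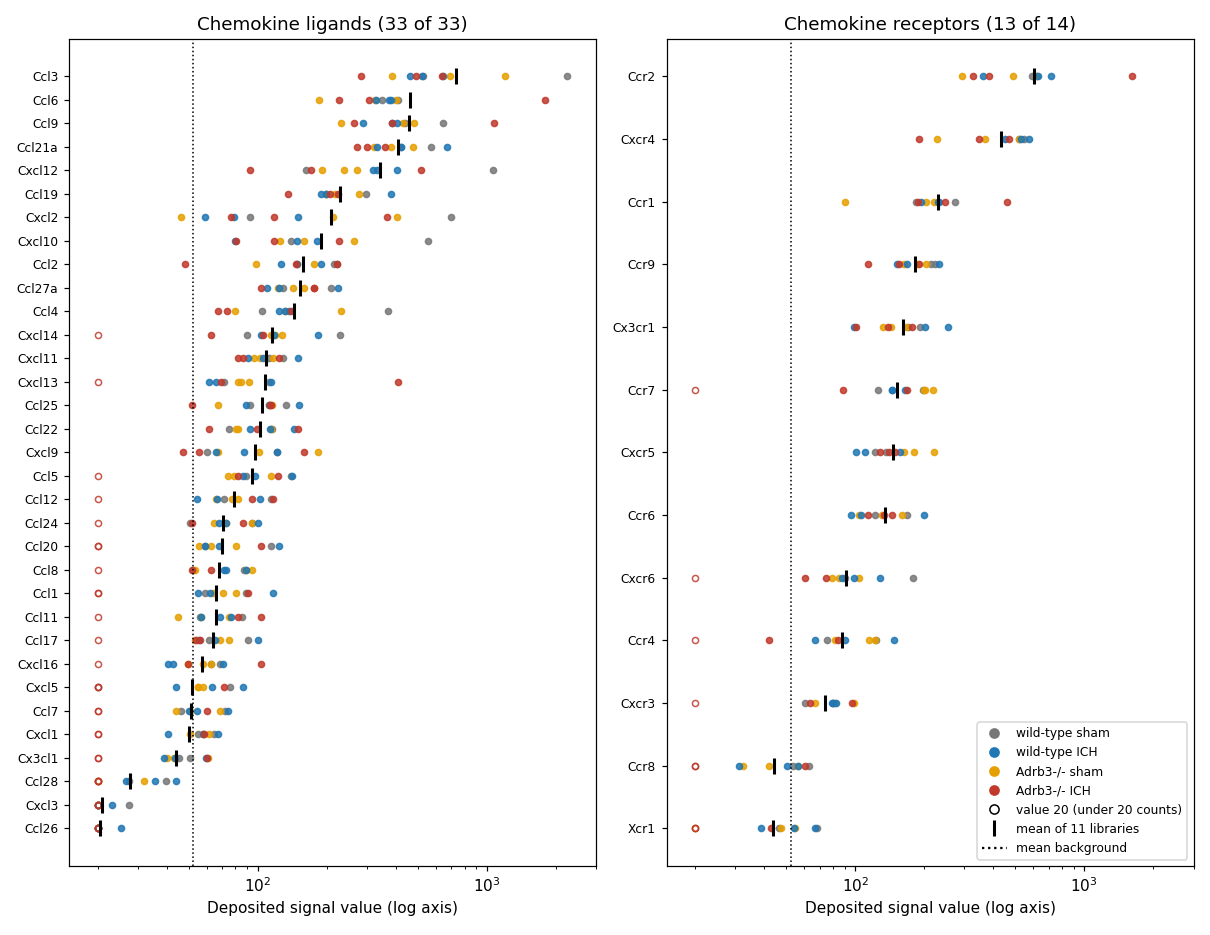
Signal of the 33 chemokine ligands (left) and 13 of the 14 receptors (right) in each of the 11 libraries on a log axis, coloured by group. Open circles are values of 20, which stand for under 20 counts, black ticks are means over the 11 libraries and the dotted line is the mean background of 52.2. Open circles of genes above that line are all from Adrb3-/- ICH libraries.

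The values at 20 were uneven between libraries. Adrb3-/- ICH replicate 2 held 23 of the 47 genes at 20 (16 ligands and 7 receptors) and Adrb3-/- ICH replicate 1 held 13, while each of the other 9 libraries held 0 to 4. Only 14 of the 47 genes exceeded the background of the library in Adrb3-/- ICH replicate 1 and 24 in replicate 2, against 36 to 47 in the other 9. Low values in these 2 libraries are therefore uncertain also where they are not at 20. For 12 genes the value in Adrb3-/- ICH replicate 2 was their only one at 20. Among the 38 genes that were tested, all 18 values at 20 lay in the Adrb3-/- ICH group, 14 in replicate 2 and 4 in replicate 1. Where the text below gives a change of a single gene with such a value, it gives the value as deposited and with 20 replaced by the worth of 20 counts, the highest level that under 20 counts allows.

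None of the 38 tested chemokine genes passed the threshold of 0.05 for the adjusted p in any of the 7 comparisons (limma, Benjamini-Hochberg over 674 genes). For ICH against sham in Adrb3-/- mice 0 of 26 ligands and 0 of 12 receptors passed, where 1.04% of all genes did. In the other 6 comparisons, where 0% of all genes passed, the chemokine genes gave 0 as well. At an unadjusted p under 0.05 there were 1 ligand and 2 receptors for ICH in Adrb3-/- mice, against 10.8% of all genes. There were 1 ligand and 2 receptors for Adrb3-/- against wild type in ICH (10.7% of all genes), and 2 receptors for the genotype averaged over treatments (6.97%). The remaining 4 comparisons gave 0 chemokine genes, against 0% of all genes for ICH in wild-type mice, 4.75% for genotype in sham mice, 4.3% for the interaction and 4.6% for ICH averaged over genotypes. Leaving out Adrb3-/- ICH replicate 1 let 1 chemokine gene pass for ICH in Adrb3-/- mice, where 23 of 674 genes then did. Leaving out Adrb3-/- ICH replicate 3 let 3 pass there, with 50 of 674 genes, and 3 for genotype in ICH, with 49. The comparisons share groups, so their values are set side by side and not related to each other.

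The estimated changes leaned toward lower signal, for the chemokine genes and, to a differing degree, for all genes. Medians are on the log2(value + 1) scale. For ICH in Adrb3-/- mice the median was -0.30 over the ligands (22 of 26 negative), -0.36 over the receptors (9 of 12) and -0.16 over all genes (452 of 674). For ICH in wild-type mice the medians were -0.10 (20 of 26), -0.07 (11 of 12) and -0.11 (483 of 674). For Adrb3-/- against wild type in sham mice they were -0.26 (23 of 26), -0.27 (8 of 12) and -0.10 (418 of 674). For the same in ICH mice they were -0.33 (20 of 26), -0.51 (8 of 12) and -0.14 (401 of 674). In the comparisons against wild-type sham the lean of the ligands hung on single libraries of that group. Without wild-type sham replicate 2, 9 of 26 ligands were negative for ICH in wild-type mice (median 0.15) and 11 for genotype in sham (0.05). The receptor medians were then 0.03 and -0.09, and those of all genes -0.04 and -0.02. Without wild-type sham replicate 3, 22 ligands were negative in either comparison (medians -0.29 and -0.33). The lean of the ligands also depended on the scaling, except for genotype in sham, where it remained with quantile normalization. With that normalization 11 ligands were negative for ICH in Adrb3-/- mice (median 0.06) and 15 for ICH in wild-type mice (-0.02). For genotype in sham 20 were negative (-0.20) and for genotype in ICH 12 (0.02). The receptor medians were -0.11, 0.04, -0.18 and -0.21 in the same order. With 20 set to the worth of 20 counts, 14 of 26 ligands were negative for ICH in Adrb3-/- mice, with a median of -0.05. So were 7 of 12 receptors, with a median of -0.14, and the median of all genes was -0.04. For genotype in ICH the medians were then -0.08 (17 of 26) and -0.16 (7 of 12), against -0.01 over all genes.

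**Figure D2:**
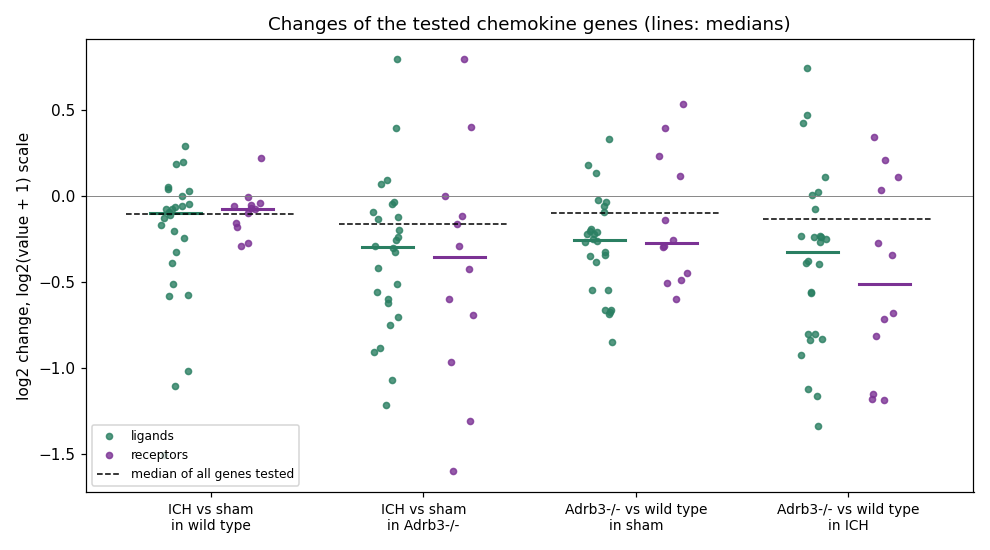
Log2 change of each tested ligand (26, green) and receptor (12, purple) in the 4 comparisons between 2 groups, with coloured lines at the medians and dashed lines at the median of all 674 genes. Most points lie below 0, the lowest receptor being Ccr7 at -1.60 for ICH in Adrb3-/- mice, and no point passed the adjusted threshold.

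For Ccl3, Cxcl2 and Cxcl10 a single sham library stood high. Ccl3, a ligand of Ccr1 that is also known to restrain the division of stem cells, stood at 526 and 2245 in wild-type sham, 460, 521 and 645 in wild-type ICH, 1202, 692 and 388 in Adrb3-/- sham, and 282, 635 and 493 in Adrb3-/- ICH. Cxcl2, which draws neutrophils through Cxcr2, stood at 93.0 and 696, at 79.2, 58.8 and 151, at 407, 213 and 46.1, and at 76.8, 366 and 118 in the same order of groups. Cxcl10, the interferon-induced ligand of Cxcr3, stood at 140 and 555, at 181, 79.5 and 149, at 263, 159 and 125, and at 80.6, 227 and 118. All 3 were highest in wild-type sham replicate 3 and second highest in Adrb3-/- sham replicate 1, and the groups overlapped. Ccl4, a close relative of Ccl3 that was added after its values were seen, had the same order at its top, with 370 and 230 in these 2 libraries. This order was not general among the ligands. Cxcl9, like Cxcl10 a ligand of Cxcr3, was highest in Adrb3-/- sham replicate 3 (183) and stood at 60.1 in wild-type sham replicate 3. Ccl5 was highest in wild-type ICH replicate 2 (141) and stood at 139 in wild-type sham replicate 3.

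The changes of Ccl3, Cxcl2, Cxcl10 and Ccl4 for ICH in wild-type mice rested on wild-type sham replicate 3. With it they were -1.02 (SE 0.63, adjusted p = 1) for Ccl3, -1.51 (SE 1.04) for Cxcl2, -1.11 (SE 0.63) for Cxcl10 and -0.58 (SE 0.57) for Ccl4. Without wild-type sham replicate 3 they were 0.03, -0.06, -0.12 and 0.32. In Adrb3-/- mice ICH gave -0.62 for Ccl3 and -0.42 for Cxcl10 (adjusted p from 0.45 upward for every ligand).

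Ccl2, which lets monocytes leave the marrow, stood at 222 and 215 in wild-type sham, 189, 127 and 149 in wild-type ICH, 177, 149 and 98.0 in Adrb3-/- sham, and 48.0, 222 and 146 in Adrb3-/- ICH. Both wild-type sham values exceeded all values of wild-type ICH and of Adrb3-/- sham. Against the first the change was -0.51 (SE 0.54) and against the second -0.67 (SE 0.54, adjusted p = 0.992). Besides Ccl2, Ccl9 alone among the chemokine genes had lower and separate values in wild-type ICH, where 14.1% of all genes did, and 0 were higher and separate (3.12% of all genes).

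Ccl6 and Ccl9, rodent ligands of Ccr1 made by myeloid cells, differed in their pattern from Ccl3. Ccl6 stood at 347 and 409 in wild-type sham, 382, 374 and 327 in wild-type ICH, 401, 324 and 185 in Adrb3-/- sham, and 1794, 227 and 308 in Adrb3-/- ICH. Ccl9 stood at 438 and 646, at 407, 386 and 288, at 483, 431 and 231, and at 1080, 387 and 262. In both genes Adrb3-/- ICH replicate 1 was above the other 10 libraries and Adrb3-/- sham replicate 3 was the lowest. The change for ICH in Adrb3-/- mice was 0.79 (SE 0.64, adjusted p = 0.676) for Ccl6 and 0.40 for Ccl9. Without Adrb3-/- ICH replicate 1 it was -0.13 and -0.19.

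The receptors Ccr1 and Ccr2 shared this order of libraries at both ends. Ccr2, the receptor of Ccl2 on monocytes, stood at 592 and 620 in wild-type sham, 715, 625 and 360 in wild-type ICH, 613, 487 and 293 in Adrb3-/- sham, and 1614, 382 and 327 in Adrb3-/- ICH. Ccr1, a receptor of myeloid cells for Ccl3, Ccl6 and Ccl9, stood at 273 and 184, at 230, 194 and 233, at 220, 205 and 90.0, and at 459, 248 and 187. The groups of both receptors overlapped. For ICH in Adrb3-/- mice Ccr1 changed by 0.79 (SE 0.41, adjusted p = 0.481) and Ccr2 by 0.40, and without Adrb3-/- ICH replicate 1 the values were 0.43 and -0.33. In that library Kit was at 20 and Cd34 at 297, and Cxcl13, the follicle ligand of Cxcr5 named after its values were seen, reached 411 against 20 to 114 elsewhere. The summed neutrophil markers were also highest in that library (518045) and lowest in Adrb3-/- sham replicate 3 (92087). Their part in the values of Ccl6, Ccl9, Ccr1 and Ccr2 was not tested.

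In the RefSeq gene order Ccl9, Ccl6, Ccl3 and Ccl4 lie next to each other in a row. The neighbours Ccl6 and Ccl3 nonetheless peaked in different libraries, as given above. In all, 18 pairs of the chemokine genes are direct neighbours, among them Ccl22 with Cx3cl1.

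**Figure D3:**
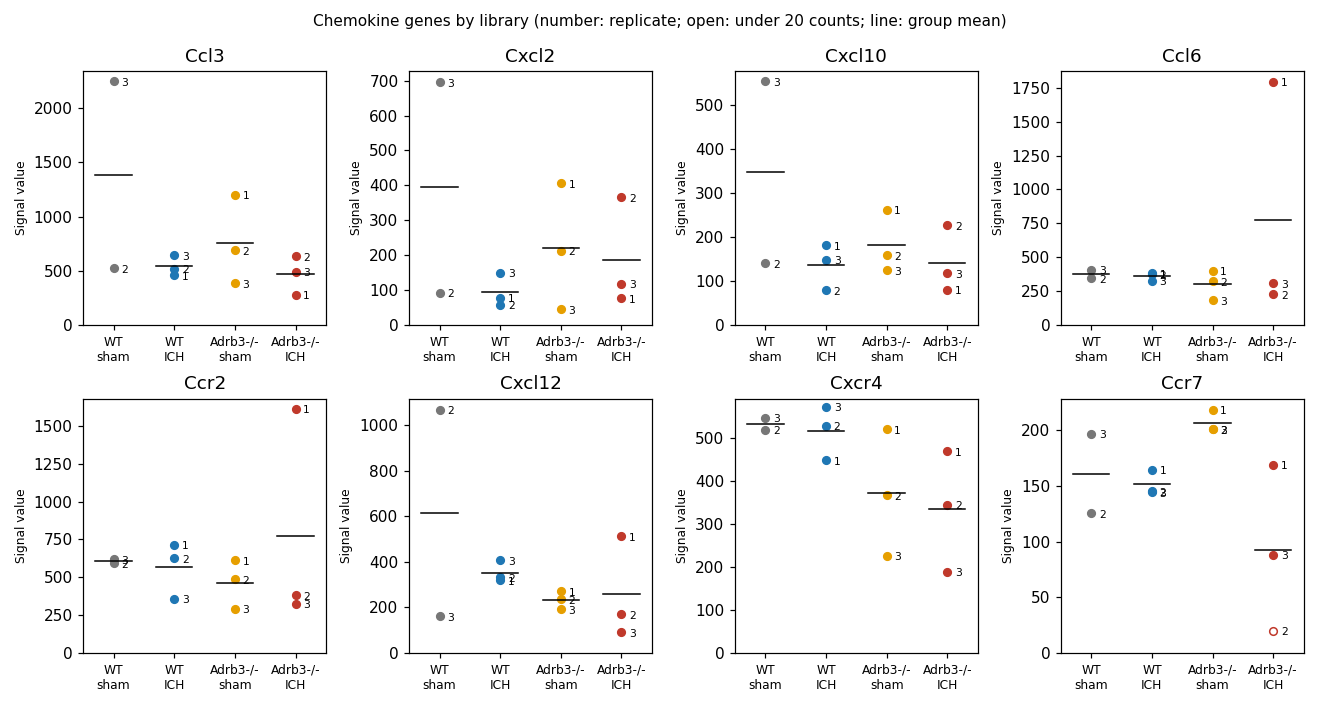
Signal of 5 ligands and 3 receptors in each library, with the replicate number beside each point, horizontal lines at group means and an open point for a value of 20. Ccl3, Cxcl2 and Cxcl10 are highest in wild-type sham replicate 3, Ccl6 and Ccr2 in Adrb3-/- ICH replicate 1, Cxcl12 in wild-type sham replicate 2, and Ccr7 is at 20 in Adrb3-/- ICH replicate 2.

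The retention pair Cxcl12 and Cxcr4 was measured above background in all 11 libraries. Cxcr4 stood at 520 and 548 in wild-type sham, 449, 530 and 574 in wild-type ICH, 521, 367 and 227 in Adrb3-/- sham, and 470, 346 and 189 in Adrb3-/- ICH. In each Adrb3-/- group 2 of 3 values lay below all 5 wild-type values, and the third lay among them. Averaged over treatments Cxcr4 was -0.66 in Adrb3-/- against wild type (SE 0.28, unadjusted p = 0.0410, adjusted p = 0.613), and it had no value at 20. Leaving out single libraries gave -0.80 to -0.48, while the fit with all 12 libraries, in which the failed library is at 20, gave 0.12. The lowest Cxcr4 value was in Adrb3-/- ICH replicate 3, which had the highest Cd34 value (1880). The summed stem and progenitor markers were 1756 to 2920 in Adrb3-/- sham and 929 to 3672 in Adrb3-/- ICH, against 1034 to 2244 in wild-type sham and 1037 to 1525 in wild-type ICH. Their part in the Cxcr4 values was not tested.

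Cxcl12 stood at 1068 and 163 in wild-type sham, 320, 333 and 407 in wild-type ICH, 270, 238 and 191 in Adrb3-/- sham, and 514, 170 and 92.5 in Adrb3-/- ICH. The highest value, in wild-type sham replicate 2, was 2.08 times the second, and the other library of that group had the second lowest of the 11 values. The change for Adrb3-/- against wild type in sham mice was -0.85 (SE 0.78) and became 0.50 without that library. The 6 measured stromal and endothelial markers summed to 341 to 407 in wild-type sham, 305 to 469 in wild-type ICH, 408 to 426 in Adrb3-/- sham and 222 to 446 in Adrb3-/- ICH, where 2 libraries held 4 and 5 of the 6 at 20. Of the 11 tested genes that bear on the holding or release of stem cells in the marrow, 1 passed for ICH in Adrb3-/- mice, Vcam1, the adhesion molecule that binds stem cell integrins, at -2.61 (SE 0.48, adjusted p = 0.0395). It also stands in the monocyte and macrophage list. No gene passed in this comparison with a replicate block, array weights, a common floor, 12 libraries or only the groups compared, nor without Adrb3-/- sham replicate 2 or 3 or any single wild-type ICH library.

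Ccl19 and Ccl21a, both ligands of Ccr7, had no value at 20. Ccl21a stood at 573 and 422 in wild-type sham, 672, 424 and 331 in wild-type ICH, 380, 476 and 321 in Adrb3-/- sham, and 271, 299 and 361 in Adrb3-/- ICH. Ccl19 stood at 298 and 200, at 381, 199 and 190, at 217, 276 and 198, and at 136, 206 and 224. In both genes the groups overlapped in each of the 4 comparisons between 2 groups. Averaged over treatments Ccl21a was -0.45 in Adrb3-/- against wild type (SE 0.22, unadjusted p = 0.0712, adjusted p = 0.613).

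Ccr7, the receptor that brings dendritic cells and T cells to lymph nodes, had a value at 20 in 1 library. It stood at 125 and 197 in wild-type sham, 164, 145 and 144 in wild-type ICH, 218, 201 and 201 in Adrb3-/- sham, and 169, 20 and 88.2 in Adrb3-/- ICH. The 3 Adrb3-/- sham values exceeded all others, and the value of 20 was that of Adrb3-/- ICH replicate 2. For ICH in Adrb3-/- mice the change was -1.60 (SE 0.60, unadjusted p = 0.0225, adjusted p = 0.376). With 20 set to the worth of 20 counts it was -0.83 (SE 0.27, adjusted p = 0.322), and without replicate 2 it was -0.75. Without Adrb3-/- ICH replicate 1 it was -2.26 (adjusted p = 0.0461), the single setting of those run in which Ccr7 passed. The interaction was -1.55 (SE 0.90, adjusted p = 0.888) as deposited and -0.78 (SE 0.41, adjusted p = 0.999) with the worth of 20 counts, so the change in Adrb3-/- mice was not shown to differ from the -0.06 in wild-type mice.

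Cxcr5, the receptor of Cxcl13 on B cells and helper T cells, stood at 137 and 122 in wild-type sham, 157, 111 and 100.5 in wild-type ICH, 163, 180 and 221 in Adrb3-/- sham, and 129, 150 and 140 in Adrb3-/- ICH. The Adrb3-/- sham values were above those of both neighbouring groups, with no value at 20 in any library. The change was 0.53 for genotype in sham (SE 0.26, adjusted p = 0.992) and -0.42 for ICH in Adrb3-/- mice (SE 0.24, adjusted p = 0.537). Ccr7 and Cxcr5 were the 2 chemokine genes that were higher and separate in Adrb3-/- sham against wild-type sham, where 10.4% of all genes were. Among those lower and separate there were Ccl2, Cxcl16, Ccr9 and Cx3cr1, against 16.3% of all genes. Ccr9, which homes T cell precursors to the thymus and lymphocytes to the gut through Ccl25, stood at 214 and 224 in wild-type sham and at 187, 203 and 163 in Adrb3-/- sham, with a change of -0.25 (SE 0.29). In ICH it stood at 231, 152 and 169 in wild-type and at 190, 155 and 114 in Adrb3-/- libraries, which overlapped.

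Ccr4, the receptor of Ccl17 and Ccl22 on helper and regulatory T cells, stood at 123 and 75.2 in wild-type sham, 147, 89.8 and 66.5 in wild-type ICH, 114, 122 and 81.9 in Adrb3-/- sham, and 42.2, 20 and 83.9 in Adrb3-/- ICH. Cxcr6, the receptor of Cxcl16 on T and natural killer cells, stood at 178 and 90.2, at 128, 87.5 and 98.9, at 84.7, 104 and 79.6, and at 74.8, 20 and 60.2. As deposited, the Adrb3-/- ICH values of Cxcr6 lay below those of every other group, but the 20 among them stands for any level under 103, so that library has no settled place in the order. Those of Ccr4 overlapped with every other group. The values of both genes in Adrb3-/- ICH replicate 1 lay under the background of that library (124). For ICH in Adrb3-/- mice Ccr4 was -1.31 (SE 0.49, adjusted p = 0.376) as deposited and -0.54 with the worth of 20 counts. Without Adrb3-/- ICH replicate 3 it was -1.81 (adjusted p = 0.0358), and without replicate 2, which holds the value at 20, -0.80 (adjusted p = 0.651). For genotype in ICH Cxcr6 was -1.18 (SE 0.45, adjusted p = 0.4) as deposited and -0.41 with the worth of 20 counts.

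The homeostatic ligand Cxcl14, which is made by epithelial and stromal cells, also had a value at 20. It stood at 228 and 90.2 in wild-type sham, 184, 104 and 118 in wild-type ICH, 119, 114 and 128 in Adrb3-/- sham, and 106, 20 and 62.4 in Adrb3-/- ICH. All Adrb3-/- ICH values lay below the Adrb3-/- sham values, also if the value of 20 is read as 103. The 106 of Adrb3-/- ICH replicate 1 was under the background of that library (124), however, so the separation rests on a value not told from background. The change was -1.22 (SE 0.55, unadjusted p = 0.0498, adjusted p = 0.45), and -0.45 with the worth of 20 counts. With Ccr7, Cxcr5 and Cxcr6 it made 4 genes lower and separate as deposited for ICH in Adrb3-/- mice, where 10.2% of all genes were, 3 of them with a value at 20, of which Cxcr6 is not separate if 20 is read as 103. In that comparison 0 chemokine genes were higher and separate, against 1.63% of all genes.

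The remaining ligands with small p values were close to background. Ccl8, in the mouse a ligand of Ccr8, stood at 87.3 and 51.9 in wild-type sham, 88.9, 71.4 and 72.9 in wild-type ICH, 53.5, 94.0 and 88.8 in Adrb3-/- sham, and 51.8, 20 and 62.4 in Adrb3-/- ICH. Ccl1, also a ligand of Ccr8, stood at 89.2 and 58.8, at 117, 62.2 and 55.1, at 63.9, 80.0 and 70.4, and at 20, 20 and 90.4. As deposited, the Adrb3-/- ICH values of Ccl8 lay below those of wild-type ICH, as did those of Cxcr6, where 8.75% of all genes did and 0 chemokine genes were higher and separate (4.9% of all genes). Neither gene is separate if its value of 20 is read as 103, and both were under the background (124) in Adrb3-/- ICH replicate 1. The Adrb3-/- ICH values of Ccl1 lay on both sides of the Adrb3-/- sham values. Its change for ICH in Adrb3-/- mice was -1.07 (SE 0.53, adjusted p = 0.478) as deposited and 0.00 with the worth of 20 counts. Without Adrb3-/- ICH replicate 3, the single library of its group in which Ccl1 was not at 20, it was -1.78 (adjusted p = 0.0209).

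Ccl17, a ligand of Ccr4, stood at 91.1 and 61.5 in wild-type sham, 99.8, 55.3 and 64.8 in wild-type ICH, 68.3, 75.0 and 53.1 in Adrb3-/- sham, and 53.7, 20 and 55.9 in Adrb3-/- ICH. Ccl24, which attracts eosinophils through Ccr3, stood at 94.9 and 50.6, at 99.8, 72.6 and 68.1, at 72.8, 94.0 and 64.6, and at 51.8, 20 and 86.0. In both genes the groups overlapped in each of the 4 comparisons between 2 groups. The other tested ligands, Ccl5, Ccl11, Ccl12, Ccl20, Ccl22, Ccl25, Ccl27a, Cxcl9, Cxcl11, Cxcl13 and Cxcl16, had means of 57.0 to 152, and none had an unadjusted p under 0.05 in the 7 comparisons. Of the other tested receptors, Cx3cr1, which marks patrolling monocytes, ranged from 98.9 to 253 and Ccr6, the receptor of Ccl20, from 95.6 to 199.7. Cxcr3, the receptor of Cxcl9 and Cxcl10, ranged from 20 to 99.2.

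Over the 16 tested chemokine genes with a value at 20, the median change for ICH in Adrb3-/- mice was -0.73 as deposited and 0.05 with the worth of 20 counts. Over the other 22 it was -0.15, against -0.04 over the 491 of all genes with no value at 20. For Adrb3-/- against wild type in ICH the medians of the 16 were -0.83 and -0.06. That of the 22 was -0.24, against 0.035 over the 491. In the 2 comparisons that do not involve the Adrb3-/- ICH group, ICH in wild-type mice and genotype in sham mice, no value at 20 enters the estimated change of any tested chemokine gene. The spread was estimated over all groups, so the values at 20 do enter the SE and p there. For Ccl1 and ICH in wild-type mice the SE was 0.60 as deposited and 0.44 with the worth of 20 counts.

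**Figure D4:**
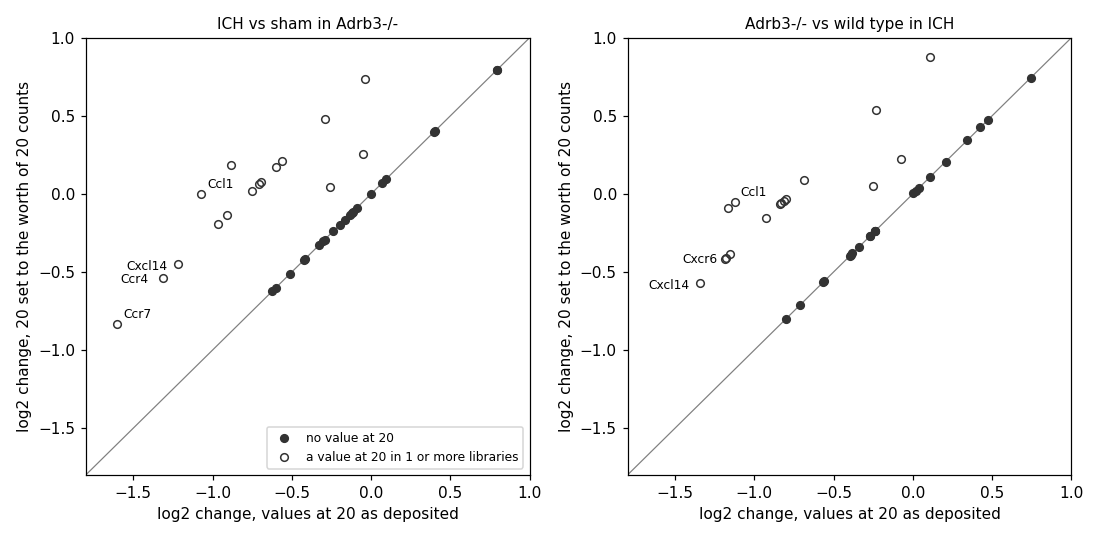
Log2 change of the 38 tested chemokine genes as deposited (horizontal axis) against the change with values of 20 set to the worth of 20 counts in their library (vertical axis), for ICH against sham in Adrb3-/- mice and for Adrb3-/- against wild type in ICH mice. Filled points have no value at 20 and lie on the diagonal, and the 16 open points lie above it, Ccl1 moving from -1.07 to 0.00 in the left panel.

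Genes outside the ligands and receptors were given as lists. Of 35 listed genes of signalling below chemokine receptors 6 were measured and 0 passed in any of the 7 comparisons, with medians of 0.06 for ICH in Adrb3-/- mice and -0.36 for ICH in wild-type mice. Of 12 atypical chemokines and decoy receptors 5 were measured and 0 passed. Among these Pf4, the platelet chemokine, was -0.63 in Adrb3-/- against wild type averaged over treatments (SE 0.21, adjusted p = 0.604), and Cd74, the receptor of the cytokine Mif and a chaperone of antigen presentation, was 1.42 in sham mice (SE 0.53, adjusted p = 0.968).

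Markers of other cell types moved between the same groups. The 14 measured monocyte and macrophage markers summed to 7278 to 13794 in Adrb3-/- sham and 1396 to 3200 in Adrb3-/- ICH, with 13 of 14 negative and 5 passing as lower, Vcam1 among them. As given beside Vcam1, no gene passed in this comparison under 5 of the alternative fits or without certain single libraries. They summed to 2743 to 5602 in wild-type sham and 3957 to 5008 in wild-type ICH. The 10 neutrophil markers were all positive for ICH in Adrb3-/- mice (median 0.78), with 0 passing. For ICH in wild-type mice 8 of them were negative and 2 positive (median -0.41), also with 0 passing. Their sums were 92087 to 361311 in Adrb3-/- sham and 280125 to 518045 in Adrb3-/- ICH. In wild-type mice the sums were 444096 to 449102 in sham and 253534 to 323870 in ICH. The 7 dendritic cell markers summed to 2042 to 3144 in Adrb3-/- sham and 1558 to 2261 in Adrb3-/- ICH, which overlap. Of the 6 tested, 5 were negative and 1 was positive, Batf3 at 0.86 (SE 0.47), with 0 passing. The tested chemokine genes with no value at 20 had a median of -0.15 for ICH in Adrb3-/- mice, against -0.04 over all genes with no value at 20. The part of these cell types in the chemokine values was not tested.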

How the data were processed

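Total RNA of sorted marrow cells was assayed in 12 libraries, per the labels' protocols. The authors deposited 1 table of signal values for 754 genes, 8 negative and 6 positive control probes. Instrument, panel and scaling were not stated in the sources used here. From the values, each signal is a whole number of counts times 1 factor per library (within 0.0053 up to 1000 counts), genes under 20 counts are given as 20 unscaled, and control probes are unscaled counts. A count model was not applied, since a value of 20 hides the count behind it.

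Genes were kept where their mean over 11 libraries exceeded the background (52.2), which left 674 and removed 80. On log2(value + 1), limma 3.58.1 (R 4.3.3) estimated 4 group means with lmFit and moderated the variances with eBayes. From these, 7 contrasts were tested on both sides, and p was adjusted by Benjamini-Hochberg over the 674 genes at a threshold of 0.05. The same steps were also run on simulated data. Its noise was independent between libraries, with no value set to 20 and no library of poorer quality, so it does not bear on those features. Tables were made with Python 3.11.15 and pandas 2.3.3. The SE values are those of the moderated fit. The p-values measure the spread between libraries, taken as mice. The precision of a level is limited by its counts, which are 20 or more except for values of 20, which stand for under 20 counts.

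Values per library are given for the 6 ligands and 4 receptors of highest mean, and for the 3 ligands and 2 receptors of smallest p in each comparison. Ccl4, Ccl5, Cxcl9, Cxcl13, Ccl20, Cxcl16 and Cx3cr1 were named after their values were seen. One receptor enters the counts and medians and is not reported here by itself. The members and lists were chosen with earlier results of these data known. Alternatives covered the normalization, the filter, the pseudocount, the value 20, the failed library, library weights, a replicate block and single libraries left out.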

Additional observations from a re-analysis of the deposited data

Results flagged for a closer look

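In wild-type sham replicate 1, which was left out of the comparisons, 13 of the 47 chemokine genes exceeded the background of that library (692). They ranged from Ccl17 at 713 (46 counts) to Ccr2 at 1349 (87 counts), where 1 count was worth 15.5. Cxcl16 stood at 1303 there against a mean of 57.0 in the other 11 libraries, Cxcl9 at 1287 against 97.4 and Cxcl1 at 869 against 50.2, while Cxcr4, Ccr7 and Ccr9 were at 20.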

How the results depend on the processing

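Of the counts of chemokine genes that passed, 155 were unchanged over the 23 alternative settings and 3 moved. Over the libraries left out singly, the count for ICH in Adrb3-/- mice ranged from 0 to 3 and that for Adrb3-/- against wild type in ICH from 0 to 3. Ccr7 passed without Adrb3-/- ICH replicate 1, and Ccl1, Ccl20 and Ccr4 passed in both comparisons without Adrb3-/- ICH replicate 3, which leaves the 2 libraries that hold the values at 20. Of 764 values of single genes under alternatives, 11 turned their sign. With quantile normalization Ccl1 was 0.074 for ICH in Adrb3-/- mice and 0.13 for genotype in ICH. With 12 libraries Ccr9 was 0.86 for ICH in wild-type mice, Ccl8 was 0.10 for the interaction, and for genotype in sham Cxcr5 was -0.35 and Cxcr4 0.96, with Cxcr4 at 0.12 averaged over treatments. Over the libraries left out singly, Ccl3 ranged from -2.06 to 0.030 and Cxcr6 from -0.78 to 0.20 for ICH in wild-type mice, and Cxcl10 from -1.67 to 0.30 and Cxcl12 from -2.21 to 0.50 for genotype in sham. Both ends of these ranges came from leaving out wild-type sham replicate 2 or 3. The cause was not tested. Median centring moved the median of all genes for ICH in Adrb3-/- mice from -0.16 to -0.04 and that for ICH in wild-type mice from -0.11 to 0.01, where 12 of 26 ligands and 4 of 12 receptors were then negative. Leaving out a wild-type sham library leaves 1, assumed to vary like the other groups.

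Deviations of same-numbered libraries from their group means correlated at -0.42 to 0.15. With group means of only 2 or 3 libraries, this cannot settle whether the numbers pair the mice. With a replicate block 0 chemokine genes passed in each comparison, and the genes passing for ICH in Adrb3-/- mice went from 7 to 0. Over the alternatives that count was 0 to 50, with 12 for a mean-variance trend, 13 for a pseudocount of 20, 2 with no filter, 1 with median centring and 23 without Adrb3-/- ICH replicate 1. A common floor at the worth of 20 counts in Adrb3-/- ICH replicate 2 (103) was added after the data were seen and gave 0 chemokine genes. Signal under 103 cannot be ranked against that library.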
